A study of Saccharomyces cerevisiae with 19 samples.

Results

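The genes described are 43 genes of DNA replication and DNA repair in budding yeast (Saccharomyces cerevisiae): every gene whose symbol is RAD followed by a number (29 genes), together with MCM2 to MCM7, POL30, RNR1 to RNR4 and RFA1 to RFA3 (14 genes). They were chosen by symbol, not by their values, although earlier results of these data were known. Only probe sets that name a single gene were used. They make up 43 of the 5449 genes measured, and each is read by 1 probe set whose name carries no mark of shared sequence. No filter on low signals was applied, so all 43 were tested.

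The labelled sch9 mutant, described by the submitters as a long-lived strain lacking the protein kinase gene SCH9, was followed from 12 to 108 h of culture with 9 arrays. The wild type was followed from 12 to 120 h with 10 arrays. Both strains came from frozen stocks, were grown to saturation overnight in SDC (a synthetic complete medium), were diluted and were then shaken at 30 °C without further treatment. Every time point was a single Affymetrix Yeast 2.0 array hybridised with total RNA, and the authors set aside the array of the mutant at 120 h after a quality check. The sources used here do not give the strain background, the mating type or the deleted stretch of SCH9.

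A yeast cell copies its DNA once per division and builds much of the copying machinery anew for it. The Mcm2-7 ring is the helicase that opens the DNA at origins, Pol30 (PCNA) is the ring that holds polymerases on DNA, Rfa1, Rfa2 and Rfa3 form RPA, which coats single-stranded DNA, and ribonucleotide reductase makes the deoxynucleotides. Transcripts of RNR1 and POL30 belong to the group made when cells enter S phase, and RNR2, RNR3 and RNR4 are known targets of the DNA damage checkpoint. The RAD genes were named for radiation sensitivity and serve nucleotide excision repair, recombination, post-replication repair and the checkpoint. In stationary culture most cells stop dividing, while damage must still be repaired.

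Signals are quantile-normalized log2 values, and every difference is on the same log2 scale, in which 1 is a factor of 2. A gene passed when its limma adjusted p was under 0.05 over all 5449 genes. The spread behind these tests is that over time points, because no time was measured in replicate cultures. In bulk RNA of a whole culture, fewer cells expressing a gene and less RNA per cell cannot be told apart.

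SCH9 itself was read between 10.07 and 10.59 in the mutant, with a median of 10.44, against 10.43 to 11.26 in the wild type, with a median of 10.92. It was lower in the mutant at 8 of 9 shared times, with a mean difference of -0.52 ± 0.39 (SD, n = 9, exact permutation test of signs, two-sided, p = 0.00781, smallest p possible 0.00391), and 0.16 higher at 12 h. On the deposited scale the mean was -0.39 with an exact permutation p = 0.109. Where this probe set lies relative to the deletion is not given, so it does not check the label, and the strain is called the labelled mutant.

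Libraries of the strains differed in several measures. The 3' to 5' score, the mean log2 excess of 3' over 5' signal in 10 control pairs, was 0.73 to 1.06 in the labelled mutant. Wild-type scores were 0.82 to 0.87 at 24 to 48 h and 1.27 to 1.44 at 96 to 120 h. The 18S ribosomal RNA control read 6.69 to 7.68 in the labelled mutant on the deposited scale, against 8.03 to 8.70 in the wild type up to 48 h and 14.55 to 14.64 at 96 to 120 h. The wild-type array at 12 h had the lowest deposited median of its early arrays, 9.46, against 9.95 to 10.03 at 24 to 48 h. In the mutant columns at least 94% of values end in the same digits at decimal 9, and at most 0.0172% do so in a wild-type column, so the columns were not written alike and strain and processing cannot be told apart. Of 4 alpha mating genes 3 were lower in the labelled mutant (26.8% of all genes were). The log2 of their summed signal was 11.37 to 14.87, against 13.01 to 14.65 in the wild type. Of 7 a mating genes 3 were higher (32.4% of all genes were), with summed signals of 10.84 to 11.37, against 10.70 to 11.47. The lowest deposited value of any probe set was 5.76, so no marker could read 0. The part of any of these library and marker differences in the results below was not tested except where a value is given.

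The first comparison asks what happened to these genes once the cultures left the 12 h time point, by setting 24 to 48 h (3 arrays a strain) against the single 12 h array of each strain. In the labelled mutant 22 of 43 genes passed (51.2%, against 59.9% of all genes), 10 higher at 24 to 48 h (27.2% of all genes) and 12 lower (32.7%). In the wild type 28 passed (65.1%, against 62.3% of all genes), 13 higher (28.7%) and 15 lower (33.6%). The lone 12 h array of a strain is assumed to vary like the arrays of the other periods and could not be left out. Scaling moved these splits. In the labelled mutant they were 14 higher and 13 lower on the deposited scale, 14 and 12 after median centring and 19 and 13 after cyclic loess. In the wild type they were 20 and 4, 9 and 16, and 13 and 15, as the median over all genes went to 0.39 on the deposited scale and -0.13 after median centring, against -0.06 here. None of the 14 MCM, POL30, RNR and RFA genes rose in either strain, and 10 fell in the labelled mutant and 11 in the wild type, with median changes of -0.57 and -0.86. On the deposited scale POL30, RNR1, RNR3 and RNR4 still fell in the wild type, while MCM2, MCM3, MCM5, MCM7, RNR2, RFA3, RAD3, RAD24 and RAD27 kept their sign without passing. After median centring the wild-type rises of RAD2, RAD17, RAD34, RAD57 and RAD61 did not pass. Of the 29 RAD genes, 10 rose and 2 fell in the labelled mutant, and 13 rose and 4 fell in the wild type. In both strains together 10 genes fell (23.6% of all genes did so) and 7 rose (18.1%). The 10 that fell in both were MCM2, MCM3, MCM4, MCM5, MCM7, POL30, RNR1, RNR4, RAD27 and RAD3, and the 7 that rose in both were RAD2, RAD4, RAD7, RAD14, RAD16, RAD28 and RAD54.

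RNR1, which encodes the catalytic large subunit of ribonucleotide reductase, had the largest change of all 43 genes. The labelled mutant read 12.47 at 12 h and 8.45, 8.89 and 9.03 at 24, 36 and 48 h. The wild type read 11.96 at 12 h and 8.88, 9.05 and 9.13 at the same later times. All later arrays of both strains stayed at 9.65 or below, well under the 12 h values. RNR1 fell by 3.68 (12.8-fold, SE 0.19, adjusted p = 9.35e-10) in the labelled mutant and fell by 2.94 (7.69-fold, SE 0.19, adjusted p = 1.36e-08) in the wild type. The difference between these changes, -0.74 (SE 0.27), did not pass (adjusted p = 0.0569).

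POL30, the sliding clamp gene, fell in both strains. Its signal in the labelled mutant was 11.95 at 12 h and 9.79 to 10.29 afterwards, and in the wild type 11.96 at 12 h and 9.73 to 10.50 afterwards, so no later array of either strain came near its 12 h value. It fell by 1.96 (3.88-fold, SE 0.21, adjusted p = 2.17e-06) in the labelled mutant and fell by 2.02 (4.04-fold, SE 0.21, adjusted p = 1.72e-06) in the wild type. The difference of 0.06 (SE 0.30) did not pass. RAD27, the nuclease that trims the flaps of Okazaki fragments, also fell in both strains, with changes of -0.50 (SE 0.11, adjusted p = 0.00105) in the labelled mutant and -0.59 (SE 0.11, adjusted p = 0.000282) in the wild type.

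All 6 MCM genes fell in the labelled mutant (32.7% of all genes did) and 5 of 6 in the wild type (33.6%). MCM5 had the largest drop among them in the labelled mutant, to a mean of 8.74 ± 0.19 (SD, n = 3) at 24 to 48 h, against 9.70 at 12 h. Its wild-type mean was 8.33 ± 0.19 (SD, n = 3) at 24 to 48 h, against 9.19 at 12 h. These are changes of -0.96 (SE 0.16, adjusted p = 0.000115) and -0.86 (SE 0.16, adjusted p = 0.000306), and no later array of either strain reached the 12 h value of that strain. MCM3 fell by 0.69 in the labelled mutant and by 0.86 in the wild type, where it was 10.58 at 12 h and 9.65 to 9.98 afterwards. MCM3 of the labelled mutant was 10.78 at 12 h, 9.67 at 24 h and 10.23 to 10.39 from 36 h on, so its 24 h array was the lowest of the course. MCM4 fell by 0.39 in each strain, and its wild-type value turned to 0.21 on the deposited scale. Its calls were also lost without single arrays: adjusted p = 0.0583 without the mutant 24 h array, 0.0677 without the mutant 48 h array, 0.0557 without the wild-type 36 h array and 0.0868 without the wild-type 48 h array.

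On the quantile scale MCM6 was the only MCM gene that passed in the labelled mutant but not in the wild type. The labelled mutant had 9.51 at 12 h and between 8.74 and 9.05 at every later time, a change of -0.61 (SE 0.14, adjusted p = 0.00144). The wild type had 9.43 at 12 h, 9.29 to 9.49 up to 48 h and 8.76 to 9.10 from 60 h on, an early change of -0.06 (SE 0.14, adjusted p = 0.72). The early changes differed by -0.55 (SE 0.20), which did not pass (adjusted p = 0.0534).

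**Figure D1:**
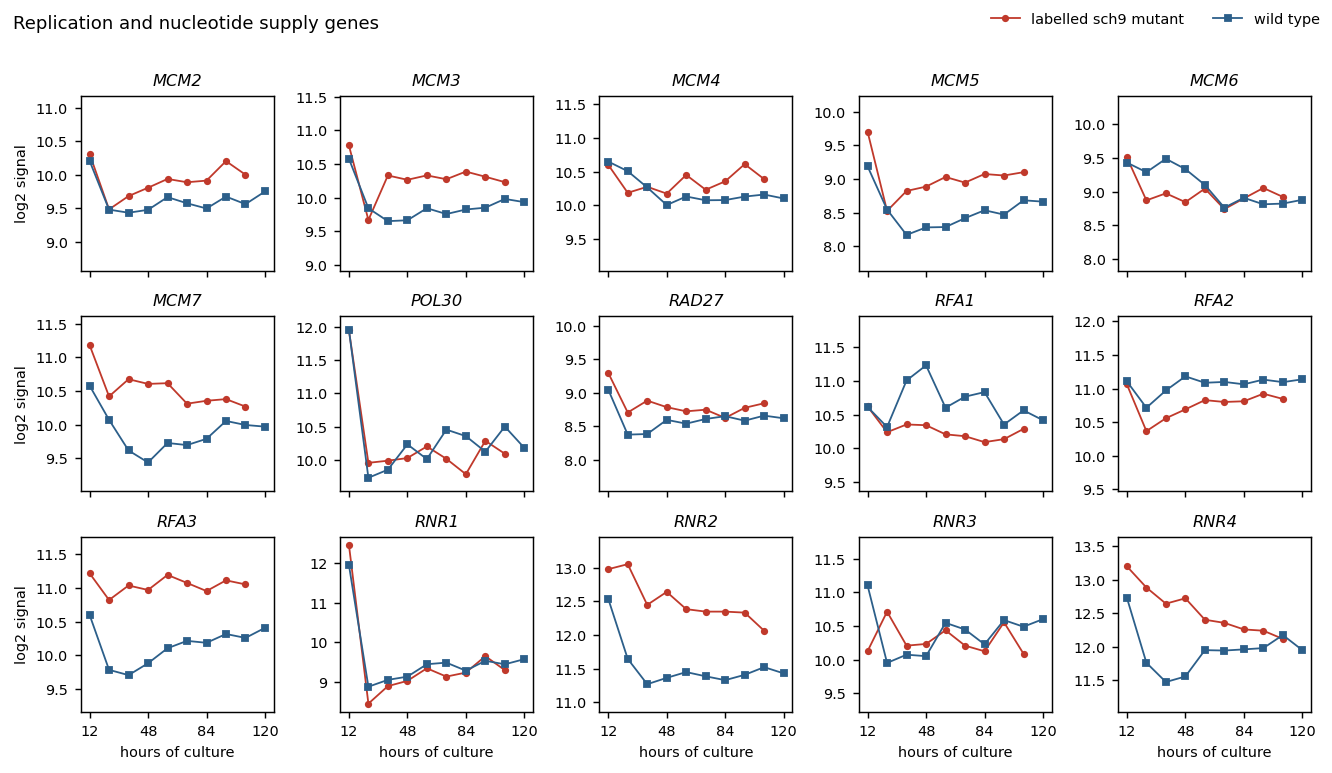
Quantile-normalized log2 signal (vertical axes, one panel per gene) against hours of culture for the MCM, POL30, RAD27, RFA and RNR genes, with the labelled sch9 mutant in red circles and the wild type in blue squares, 1 array per point. RNR1 and POL30 are highest at 12 h in both strains, RFA3 of the labelled mutant lies above every wild-type value, and RNR2 and RNR4 lie furthest apart at 24 to 48 h.

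Nucleotide excision repair, which cuts out bulky and ultraviolet lesions, is the role with the most members here. Of its 13 genes, 8 rose (27.2% of all genes) and 1 fell (32.7%) in the labelled mutant. In the wild type 8 rose (28.7%) and 2 fell (33.6%). RAD28, a relative of the human CSA gene, gave 8.29 at 12 h and 9.22 to 10.04 afterwards in the labelled mutant, and 8.44 at 12 h and 9.14 to 9.74 afterwards in the wild type. It rose by 1.39 (2.62-fold, SE 0.20, adjusted p = 2.79e-05) in the labelled mutant and by 1.10 (2.15-fold, SE 0.20, adjusted p = 0.000223) in the wild type. RAD4, whose protein recognises damage, gave 8.42 at 12 h and 9.34 to 9.84 afterwards in the labelled mutant, and 8.59 at 12 h and 9.26 to 10.32 afterwards in the wild type. It rose by 1.28 (2.43-fold, SE 0.17, adjusted p = 1.79e-05) in the labelled mutant and by 1.53 (2.89-fold, SE 0.17, adjusted p = 3.56e-06) in the wild type. For both genes every later array lay above the 12 h array of its strain.

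Other steps of excision repair moved the same way. RAD7 and RAD16, which act together on lesions in untranscribed DNA, rose by 0.71 and 0.74 in the labelled mutant and by 0.83 and 1.70 in the wild type. RAD14, the relative of human XPA, rose by 0.73 in the labelled mutant and by 1.11 in the wild type. RAD2, the nuclease that cuts on the 3' side of a lesion, rose by 1.11 (SE 0.14, adjusted p = 7.16e-06) in the labelled mutant and by 0.42 (SE 0.14, adjusted p = 0.0158) in the wild type. RAD26, the coupling factor that links repair to transcription, rose by 0.79 in the labelled mutant (adjusted p = 0.000766) and had a change of 0.21 in the wild type that did not pass (adjusted p = 0.296). RAD3, a helicase of the transcription and repair factor TFIIH, fell instead, by 0.59 in the labelled mutant and 0.60 in the wild type. RAD23 and RAD33, partners of Rad4, passed in neither strain.

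RAD1 and RAD10 encode the subunits of the nuclease that cuts on the 5' side. RAD1 passed in opposite directions: 10.01 ± 0.13 (SD, n = 3) at 24 to 48 h against 9.65 at 12 h in the labelled mutant, and 9.70 ± 0.14 (SD, n = 3) against 10.10 in the wild type. These changes of 0.37 (SE 0.12, adjusted p = 0.0184) and -0.41 (SE 0.12, adjusted p = 0.00978) differed by 0.77 (SE 0.17, adjusted p = 0.00581), although the wild-type change turned to 0.11 on the deposited scale and the change in the labelled mutant did not pass with the 3' to 5' score in the model. RAD10 rose by 0.62 (adjusted p = 9.98e-05) in the wild type and had a change of 0.23 in the labelled mutant that did not pass (adjusted p = 0.0651).

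Of the 6 recombination genes 1 rose in the labelled mutant (27.2% of all genes did) and 3 in the wild type (28.7%). RAD54, a motor protein of recombination, was 8.69 at 12 h and 9.29 to 9.55 afterwards in the labelled mutant, and 8.61 at 12 h and 9.34 to 10.40 afterwards in the wild type. It rose by 0.71 (SE 0.18, adjusted p = 0.00319) in the labelled mutant and by 1.52 (SE 0.18, adjusted p = 5.04e-06) in the wild type. RAD59, a strand-annealing relative of RAD52, was 8.07 at 12 h and 8.11 to 8.59 afterwards in the labelled mutant. Its wild-type course was 7.87 at 12 h, 8.92, 9.82 and 9.66 at 24, 36 and 48 h, and 8.40 to 8.91 from 60 h on, so the peak at 36 and 48 h lay more than 1 log2 unit above any array of the labelled mutant. RAD59 rose by 1.60 (3.02-fold, SE 0.24, adjusted p = 5.13e-05) in the wild type and had a change of 0.28 (SE 0.24, adjusted p = 0.341) in the labelled mutant. RAD57 rose by 0.25 (adjusted p = 0.0332) in the wild type, a call lost without the wild-type 36 h array (adjusted p = 0.0536). RAD50, RAD52 and RAD55 passed in neither strain, and neither did any of the 4 post-replication repair genes RAD5, RAD6, RAD18 and RAD30.

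**Figure D2:**
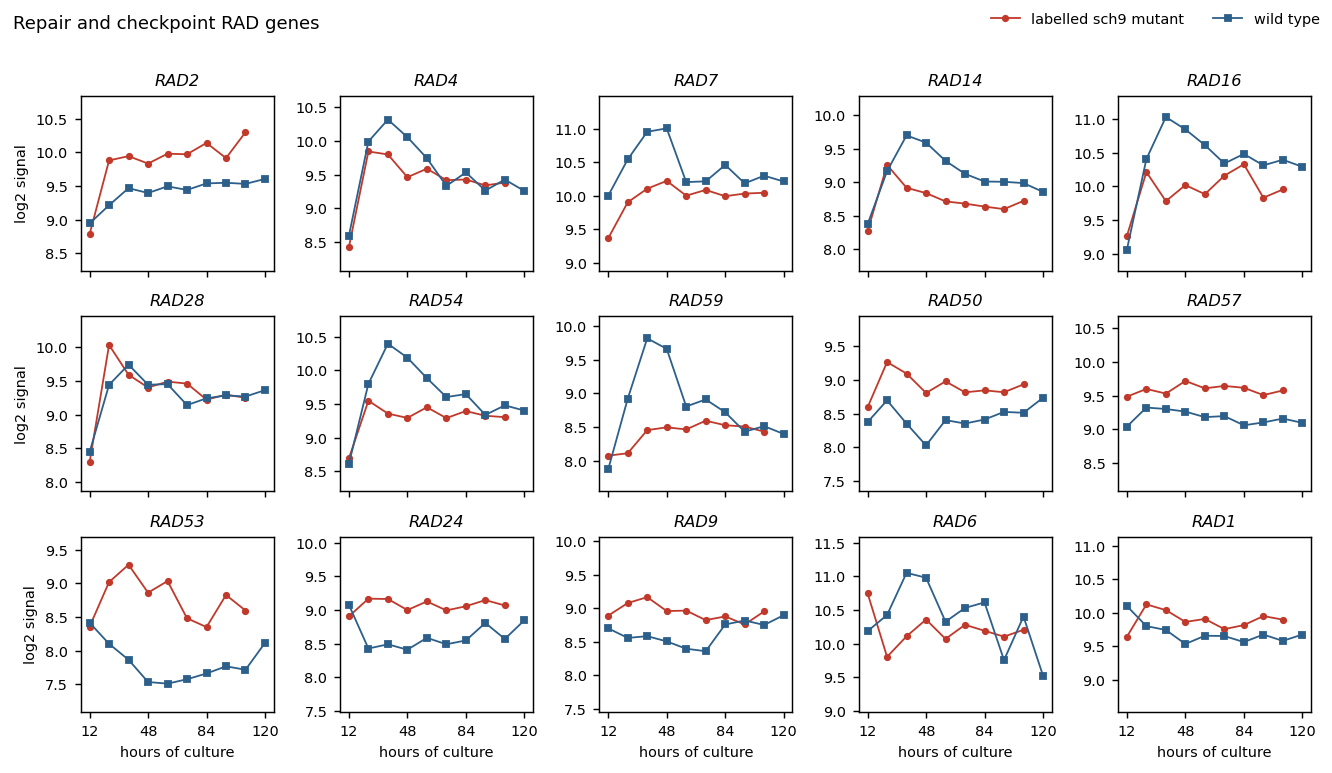
Quantile-normalized log2 signal (vertical axes, one panel per gene) against hours of culture for 15 RAD genes, with the labelled sch9 mutant in red circles and the wild type in blue squares, 1 array per point. RAD4, RAD16, RAD28 and RAD54 are lowest at 12 h in both strains, and RAD59 peaks at 36 and 48 h in the wild type.

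The early changes themselves differed between the strains, labelled mutant minus wild type, in 12 of 43 genes (27.9%, against 25.2% of all genes), 8 with a positive difference (13%) and 4 with a negative one (12.2%). These splits moved with scaling: 3 positive and 10 negative on the deposited scale, 6 and 1 after median centring, 8 and 2 after cyclic loess. The median over all genes also moved, to -0.45 on the deposited scale, against 0.00 here.

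Ribonucleotide reductase carried 3 of the 8 positive differences. RNR3, the large subunit made mainly after DNA damage, was 10.12 at 12 h and 10.09 to 10.71 afterwards in the labelled mutant, and 11.10 at 12 h and 9.95 to 10.60 afterwards in the wild type. Its change was 0.26 (SE 0.20, adjusted p = 0.292) in the labelled mutant and -1.08 (SE 0.20, adjusted p = 0.000336) in the wild type, a difference of 1.34 (SE 0.29, adjusted p = 0.00451). RNR2, a small subunit, was 12.98, 13.06, 12.45 and 12.64 at 12, 24, 36 and 48 h in the labelled mutant, and 12.54, 11.65, 11.27 and 11.36 in the wild type. Only the wild type fell, by 1.11 (2.17-fold, SE 0.19, adjusted p = 0.00012), against -0.27 (adjusted p = 0.239) in the labelled mutant, and the difference was 0.85 (SE 0.27, adjusted p = 0.0306). That difference of RNR2 did not pass under the 3 other scalings or without the wild-type 36 h array (adjusted p = 0.0568). RNR4, the partner of Rnr2, was 13.20, 12.88, 12.64 and 12.72 in the labelled mutant, and 12.73, 11.76, 11.48 and 11.56 in the wild type. It fell by 0.45 (adjusted p = 0.00807) in the labelled mutant and by 1.13 (adjusted p = 4.1e-06) in the wild type, a difference of 0.68 (SE 0.19, adjusted p = 0.0163) that turned to -0.04 on the deposited scale.

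Checkpoint genes gave 2 of the other positive differences. RAD53, the central checkpoint kinase, was 8.35 at 12 h and 8.86 to 9.28 at 24 to 48 h in the labelled mutant, against 8.41 at 12 h and 7.53 to 8.10 at 24 to 48 h in the wild type. The strains were side by side at 12 h and did not overlap at 24 to 48 h. The change of RAD53 was 0.70 (SE 0.25, adjusted p = 0.028) in the labelled mutant and -0.58 (SE 0.25, adjusted p = 0.0585, not past) in the wild type, a difference of 1.28 (SE 0.36, adjusted p = 0.0192). The rise in the labelled mutant was not past without its 36 h array (adjusted p = 0.0736) or with the 3' to 5' score in the model. RAD24, the loader of the checkpoint clamp, had changes of 0.21 (adjusted p = 0.145, not past) in the labelled mutant and -0.63 (adjusted p = 0.000271) in the wild type, a difference of 0.84 (SE 0.17, adjusted p = 0.00264). RAD1 (0.77), RAD2 (0.69, adjusted p = 0.0193) and RFA3 (0.54, adjusted p = 0.0314) completed the 8, RAD1 and RAD2 did not pass on the deposited scale, and the difference of RFA3 turned to -0.0815 on the deposited scale.

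The 4 negative differences were those of RAD59 (-1.32, SE 0.34, adjusted p = 0.0134), RAD6 (-1.29, SE 0.41, adjusted p = 0.0338), RAD16 (-0.96, SE 0.31, adjusted p = 0.0336) and RAD54 (-0.81, SE 0.25, adjusted p = 0.0316). RAD6, the ubiquitin-conjugating enzyme that marks PCNA at stalled forks, was 10.75 at 12 h and 9.80, 10.11 and 10.36 at 24, 36 and 48 h in the labelled mutant. Its wild-type signal was 10.18 at 12 h and 10.42, 11.05 and 10.98 at the same later times. Neither change of RAD6 passed alone (-0.66, adjusted p = 0.0645 in the labelled mutant, 0.63, adjusted p = 0.0719 in the wild type). After median centring RAD59 (-0.82), RAD54 (-0.61) and RAD16 (-0.99) did not pass, and under cyclic loess the same 3 did not pass either. Leaving out 1 array ended several of these calls: without the wild-type 36 h array the adjusted p was 0.0631 for RAD6, 0.0588 for RAD16 and 0.0556 for RFA3, and without the mutant 36 h array it was 0.0602 for RAD16, 0.0522 for RAD54 and 0.0581 for RFA3. Without the wild-type 48 h array it was 0.0556 for RAD6 and 0.0522 for RAD16.

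The second comparison asks whether the strains differed in the level of these genes over the 9 shared times, labelled mutant minus wild type with time points matched. 30 of 43 genes passed (69.8%, against 59.2% of all genes), 21 higher in the labelled mutant (48.8%, against 32.4%) and 9 lower (20.9%, against 26.8%). The median difference was 0.19, against 0.03 over all genes. On the deposited scale the split was 25 higher and 1 lower, with a median over all genes of 0.17, and with that 3' to 5' score added to the model 26 passed, 18 higher and 8 lower, and MCM3, RAD3, RAD14, RAD16 and RAD61 no longer did. Without the times from 84 h on MCM2, RAD3, RAD16 and RAD61 did not pass. No gene differed by a full 2-fold on average on the quantile scale, while RFA3 (1.05) and RAD53 (1.01) passed 1 log2 unit on the deposited scale and RNR2 reached 1.0002 after cyclic loess. Only RFA3 and RAD57 (4.65%) had all values of the labelled mutant above all those of the wild type (3.69% of all genes), and none had them all below (2.04%), which makes 5.73% of all genes in either direction.

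Of the 14 MCM, POL30, RNR and RFA genes 7 were higher (32.4% of all genes) and 2 lower (26.8%). RNR2 had the largest difference of the 43 genes on the quantile scale. It read 12.06 to 13.06 in the labelled mutant with a median of 12.39, against 11.27 to 12.54 in the wild type with a median of 11.42, and the ranges overlapped only through the wild-type 12 h array. It was higher at 9 of 9 times, by 0.97 (1.95-fold, SE 0.10, adjusted p = 2.33e-05), with differences between 0.44 at 12 h and 1.41 at 24 h. The mean was 0.58 after median centring and 0.83 on the deposited scale, below RFA3 (0.80 and 1.05), RAD53 (0.76 and 1.01) and MCM7 (0.61 and 0.86) on both. RNR4 read 12.12 to 13.20 in the labelled mutant with a median of 12.40, against 11.48 to 12.73 in the wild type with a median of 11.95. It was higher at 8 of 9 times, by 0.59 (SE 0.13, adjusted p = 0.00294), with the strains closing to 12.12 and 12.18 at 108 h, and it did not pass after median centring, where the difference was 0.14. The large subunits did not pass: RNR1 differed by -0.08 (95% interval -0.28 to 0.12) and RNR3 by -0.09 (-0.39 to 0.22). The clamp gene POL30 differed by -0.10 (-0.32 to 0.11).

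The subunits of RPA went in opposite directions. RFA3, the smallest subunit, was 10.82 to 11.22 in the labelled mutant with a median of 11.05, against 9.70 to 10.60 in the wild type with a median of 10.20, without overlap. It was higher at 9 of 9 times, by 0.93 (1.91-fold, SE 0.08, adjusted p = 6.52e-06). RFA2 was 10.37 to 11.06 in the labelled mutant with a median of 10.81, against 10.72 to 11.18 in the wild type with a median of 11.10, and was lower at 9 of 9 times, a difference of -0.29 (SE 0.06, adjusted p = 0.00142). RFA1 was 10.09 to 10.62 in the labelled mutant with a median of 10.24, against 10.31 to 11.23 in the wild type with a median of 10.61, a difference of -0.43 (SE 0.10, adjusted p = 0.0031). The values of both overlapped between the strains, and neither passed on the deposited scale, where the differences were -0.25 for RFA2 and -0.28 for RFA1.

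Among the MCM genes 4 of 6 were higher in the labelled mutant (32.4% of all genes were). MCM7 led with 10.27 to 11.18 in the labelled mutant (median 10.42), against 9.44 to 10.58 in the wild type (median 9.88), overlapping ranges but a higher value at 9 of 9 times and a difference of 0.65 (1.57-fold, SE 0.10, adjusted p = 0.000281). MCM5 (0.51, adjusted p = 0.000219), MCM3 (0.40, adjusted p = 0.00227) and MCM2 (0.29, adjusted p = 0.00233) followed. MCM4 (0.14, 95% interval -0.03 to 0.32) and MCM6 (-0.12, -0.32 to 0.08) did not pass.

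Checkpoint and post-replication repair genes were higher or did not pass. RAD53 was 8.35 to 9.28 in the labelled mutant with a median of 8.83, against 7.51 to 8.41 in the wild type with a median of 7.74. Its ranges met only at 8.35 to 8.41, where the 12 h and 84 h arrays of the labelled mutant and the 12 h array of the wild type lay. RAD53 was higher at 8 of 9 times, by 0.96 (1.95-fold, SE 0.14, adjusted p = 0.000179), with a difference of -0.06 at 12 h and 0.69 to 1.53 at all later shared times. RAD24 (0.47, adjusted p = 0.000821) and RAD9 (0.34, adjusted p = 0.00331), an adaptor that brings Rad53 to the sensor kinases, were also higher, and RAD17 (-0.06), a part of the checkpoint clamp, did not pass. Of the post-replication genes, RAD5 (0.37, adjusted p = 0.00108) and RAD18 (0.31, adjusted p = 0.00129), ubiquitin ligases acting on PCNA, and RAD30 (0.29, adjusted p = 0.000967), a polymerase that bypasses ultraviolet lesions, were higher, while RAD6 (-0.27, 95% interval -0.58 to 0.04) did not pass. After median centring the difference of RAD18 was 0.16 and did not pass.

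All 6 recombination genes passed (59.2% of all genes did), 2 higher (32.4%) and 4 lower (26.8%), and the partners RAD55 and RAD57 took opposite signs. RAD55 and RAD57 encode the subunits of a dimer that acts in recombinational repair. RAD55 was 8.03 to 8.51 in the labelled mutant with a median of 8.31, against 8.49 to 9.07 in the wild type with a median of 8.84, and was lower at 9 of 9 times, a difference of -0.51 (1.43-fold, SE 0.07, adjusted p = 7.78e-05). RAD57 was 9.48 to 9.72 in the labelled mutant with a median of 9.60, against 9.04 to 9.32 in the wild type with a median of 9.17, and was higher at 9 of 9 times, by 0.41 (1.33-fold, SE 0.05, adjusted p = 9.05e-05). The strains did not overlap for RAD57 and overlapped for RAD55 only between 8.49 and 8.51. RAD50, a part of the complex that holds broken ends, was higher at 9 of 9 times, by 0.50 (SE 0.07, adjusted p = 0.000133). RAD52 (-0.36, adjusted p = 0.00265), RAD54 (-0.37, adjusted p = 0.0169) and RAD59 (-0.44, adjusted p = 0.0327) were lower, and none of these 3 passed on the deposited scale. The difference was not even over the course. It was -1.04 at 36 h and -0.01 at 96 h for RAD54, lower at 8 of 9 times. For RAD59 it was -1.37 at 36 h and 0.08 at 96 h, lower at 7 of 9 times. The call of RAD59 was lost without the 24, 36, 48, 60 or 72 h pair in turn, with adjusted p of 0.0657, 0.0711, 0.0816, 0.0522 and 0.0504.

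Excision repair split into 4 genes higher (32.4% of all genes), 3 lower (26.8%) and 6 not past. RAD26 (0.49, adjusted p = 0.000473), RAD2 (0.46, adjusted p = 0.000865), RAD33 (0.42, adjusted p = 0.000787) and RAD3 (0.25, adjusted p = 0.0224) were higher, but RAD3 was lost when the 60, 72, 84, 96 or 108 h pair was left out (adjusted p = 0.0564, 0.0594, 0.0557, 0.0506 and 0.059), and its difference was 0.07 with the 3' to 5' score in the model. RAD7 was 9.37 to 10.22 in the labelled mutant with a median of 10.03, against 10.001 to 11.00 in the wild type with a median of 10.26, overlapping ranges but a lower value at 9 of 9 times and a difference of -0.46 (SE 0.09, adjusted p = 0.00125). Its partner RAD16 was also lower, 9.26 to 10.33 in the labelled mutant with a median of 9.95, against 9.06 to 11.03 in the wild type with a median of 10.40, a difference of -0.45 (SE 0.13, adjusted p = 0.0111). RAD14 was lower too (-0.40, adjusted p = 0.003). None of these 3 passed on the deposited scale, where the differences were -0.26, -0.28 and -0.17. RAD61, which encodes a factor that releases cohesin from chromosomes, was higher (0.26, adjusted p = 0.0108).

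**Figure D3:**
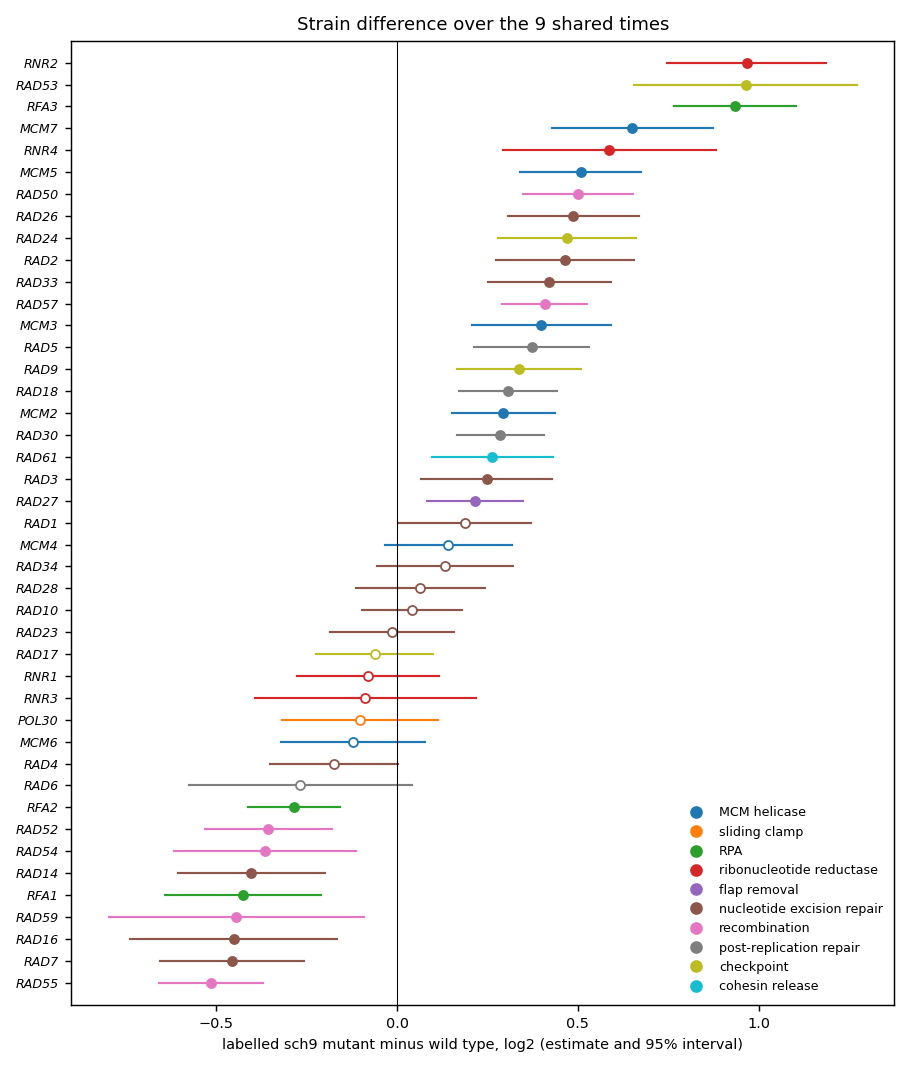
Mean log2 difference, labelled sch9 mutant minus wild type, over the 9 shared times (horizontal axis) for the 43 genes sorted by size, coloured by role; bars are 95% intervals of the limma fit and filled points passed the adjusted p of 0.05. 21 filled points lie right of 0 and 9 left of 0, with RNR2, RAD53 and RFA3 at the top and RAD55 at the bottom.

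The third comparison follows the cultures on to 96 h and later (2 arrays of the labelled mutant, 3 of the wild type), set against 24 to 48 h. In the labelled mutant 6 of 43 genes passed (14%, against 15.8% of all genes), 3 higher late (8.41%) and 3 lower (7.38%). In the wild type 18 passed (41.9%, against 41% of all genes), 6 higher (20.7%) and 12 lower (20.3%). The changes differed between the strains in 9 genes (20.9%, against 25.9% of all genes), 6 with a positive difference (12.8%) and 3 with a negative one (13.1%). Wild-type late arrays are the ones with a 3' to 5' score of 1.27 to 1.44 and an 18S control of 14.55 to 14.64. With this score in the model 4 wild-type calls passed, and none of the differences passed by limma (7 at an unadjusted p under 0.05). On the deposited scale the wild-type split was 0 higher and 22 lower and that of the differences 18 and 1, and after median centring they were 10 and 11, and 6 and 7. The split in the labelled mutant was 2 and 0 on both of these scales.

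Of the 29 RAD genes, which are most of the 43, 11 fell late in the wild type (20.3% of all genes did) and 2 rose (20.7%). Of the 13 excision repair genes 7 fell. RAD59 was 8.45 ± 0.06 (SD, n = 3) in late wild-type arrays, against 9.47 ± 0.48 (SD, n = 3) at 24 to 48 h, and fell by 1.02 (SE 0.17, adjusted p = 0.000414). Its change in the labelled mutant was 0.12 (adjusted p = 0.724), and the difference was 1.14 (SE 0.26, adjusted p = 0.00659). RAD6 fell by 0.93 (SE 0.21, adjusted p = 0.0028) in the wild type, with late arrays at 9.75, 10.40 and 9.52, against 10.42, 11.05 and 10.98 at 24 to 48 h, so 1 late array nearly reached the earlier ones. RAD4 fell by 0.81 (SE 0.12, adjusted p = 0.000212) to 9.26, 9.43 and 9.26 in the late wild type, below its 9.99 to 10.32 at 24 to 48 h. RAD34, a relative of RAD4, fell by 0.74 (SE 0.11, adjusted p = 0.000137) to 7.41 to 7.68, below its 8.10 to 8.45, but after median centring its change was -0.24 and did not pass, and RAD10 (-0.16) did not pass there either. RAD54 (-0.72), RAD61 (-0.65), RAD23 (-0.63), RAD7 (-0.60), RAD14 (-0.53), RAD16 (-0.43) and RAD10 (-0.37) were the other RAD genes that fell, and RAD16 did not pass without any one of 5 arrays, with adjusted p up to 0.175 without the wild-type 36 h array. MCM6 was the one replication gene that fell, by 0.53 (SE 0.10, adjusted p = 0.000756), with all late wild-type arrays (8.81 to 8.88) below those at 24 to 48 h (9.29 to 9.49).

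The late wild-type increases were RFA3 (0.54, SE 0.08, adjusted p = 0.00024), RNR3 (0.53, SE 0.14, adjusted p = 0.00905), RNR1 (0.50, SE 0.13, adjusted p = 0.00909), RNR4 (0.44, SE 0.09, adjusted p = 0.00199), RAD24 (0.30, adjusted p = 0.0103) and RAD9 (0.27, adjusted p = 0.0445). All 3 late arrays of RFA3 (10.26 to 10.41) and of RNR1 (9.45 to 9.58) lay above those at 24 to 48 h (9.70 to 9.88 and 8.88 to 9.13), and RNR1 stayed far below its 12 h value. RAD9 turned to -0.0176 on the deposited scale, RNR3 turned to -0.13 with the score in the model, RAD24 was not past without the 120 h array (adjusted p = 0.0577), and RAD9 was not past without any one of the 6 arrays (adjusted p up to 0.145, without the 120 h array).

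RNR4 had the smallest adjusted p among the differences of the late changes. It fell by 0.57 (SE 0.10, adjusted p = 0.00388) in the labelled mutant, to 12.24 and 12.12 at 96 and 108 h, below all of its 24 to 48 h arrays (12.64 to 12.88). Its late wild-type arrays were 11.98, 12.18 and 11.95, above those at 24 to 48 h (11.48 to 11.76). The difference of -1.01 (SE 0.14) had an adjusted p of 0.000454, kept its call under the 3 other scalings and did not pass with the score in the model. MCM6 (0.63, SE 0.15, adjusted p = 0.00795) and RAD59 kept theirs under each single array left out, as RNR4 did. The other differences, RAD6 (0.99), RAD54 (0.64), RAD7 (0.56), RAD3 (0.42), RAD9 (-0.48) and RFA3 (-0.40), had adjusted p of 0.0201 to 0.0321. None of these 6 passed without the mutant 96 h array (adjusted p 0.0507 to 0.14), and RFA3 turned to 0.10 on the deposited scale.

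Other late changes in the labelled mutant were RNR1 (0.69, SE 0.15, adjusted p = 0.0091), MCM2 (0.44, SE 0.10, adjusted p = 0.0103), RAD3 (0.29, adjusted p = 0.0408), RNR2 (-0.52, SE 0.15, adjusted p = 0.0305) and RAD23 (-0.43, SE 0.11, adjusted p = 0.0219). RNR1 gave 9.65 and 9.30 at 96 and 108 h, above 8.45 to 9.03 at 24 to 48 h, and MCM2 gave 10.20 and 10.002, above 9.49 to 9.81. RNR2 gave 12.33 and 12.06, below 12.45 to 13.06, and RAD23 gave 10.20 and 10.41, below 10.64 to 10.84. Each of the 6 calls was lost without the 96 h array, without the 108 h array or without either. Over all 43 genes 1 passed when the 96 h array was left out and 2 when the 108 h array was, and RNR4 then had an adjusted p of 0.0507.

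**Figure D4:**
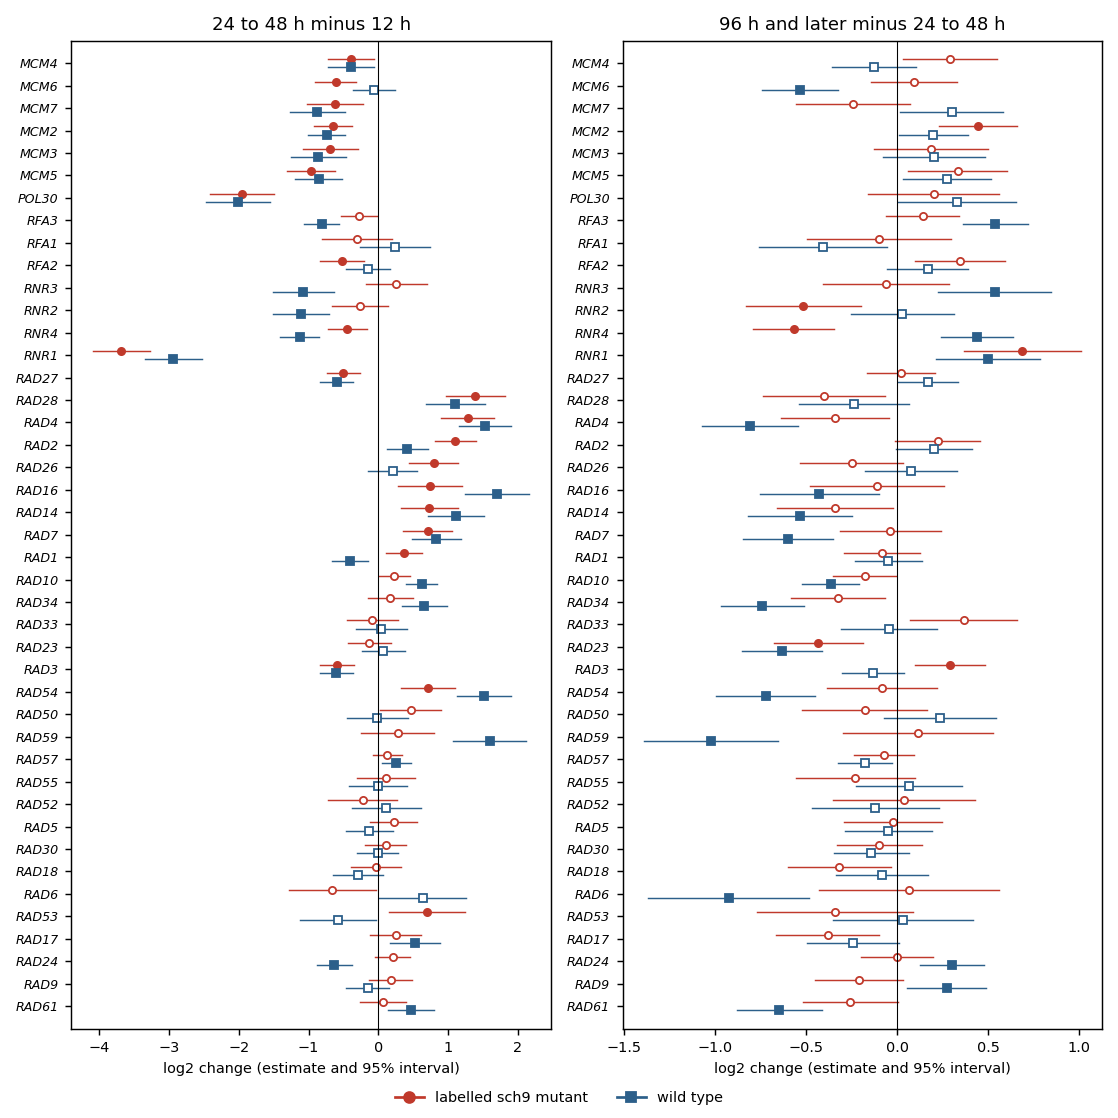
Log2 change of each of the 43 genes with 95% intervals of the limma fit, left panel 24 to 48 h minus 12 h, right panel 96 h and later minus 24 to 48 h; red circles are the labelled sch9 mutant (drawn above), blue squares the wild type, filled where the adjusted p was under 0.05. In the left panel RNR1 and POL30 lie far left in both strains and RAD28 and RAD4 right, and in the right panel 18 wild-type squares and 6 mutant circles are filled.

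Genes outside the 43 that act in the same processes, in lists also chosen with earlier results of these data known, were counted in the same way. Of 43 other replication factors, 16 fell early (32.7% of all genes) and 3 rose (27.2%) in the labelled mutant, and 24 fell (33.6%) and 5 rose (28.7%) in the wild type, with median changes of -0.24 and -0.53 (over all genes -0.04 and -0.06). DPB2, a subunit of polymerase epsilon, fell by 1.03 in the labelled mutant and by 1.24 in the wild type, and CDC7, the kinase that fires origins, rose by 0.98 in the wild type. Over the shared times 21 of these factors were higher in the labelled mutant (32.4% of all genes) and 7 lower (26.8%), RFC4 (0.74), a subunit of the PCNA loader, and MCM10 (0.84) among the higher ones and DPB2 (-0.45) among the lower.

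Among 14 regulators of ribonucleotide reductase and checkpoint genes, 5 were higher in the labelled mutant (32.4% of all genes) and 3 lower (26.8%), shares near those of the array. The other 6 did not pass, and the median difference of the 14 was -0.04. Of the higher ones, the sensor kinase genes TEL1 (0.96, SE 0.11, adjusted p = 3.27e-05) and MEC1 (0.67, SE 0.11, adjusted p = 0.000291) had the smallest adjusted p. DIF1, which encodes the factor that takes Rnr2 and Rnr4 into the nucleus, was lower (-0.66, SE 0.13, adjusted p = 0.000969), and HUG1, an inhibitor of ribonucleotide reductase induced by DNA damage, had the lowest difference of the 14 (-1.65, SE 0.16, adjusted p = 1.39e-05). Each of these 4 kept its sign under the 3 other scalings. Of 42 other repair genes 18 were higher in the labelled mutant and 5 lower, set against the same 32.4% and 26.8% of all genes. MRE11, whose protein forms one complex with Rad50, was higher by 0.71 (SE 0.09, adjusted p = 5.8e-05), and REV7, a subunit of the bypass polymerase zeta, by 0.60. EXO1 and REV1 were lower (-0.34 each). On the deposited scale the differences were 0.94 for MRE11, 0.87 for REV7, -0.04 for EXO1 and -0.12 for REV1. Early, 17 of the 42 rose (27.2% of all genes) and 8 fell (32.7%) in the labelled mutant, and 14 rose (28.7%) and 10 fell (33.6%) in the wild type.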

How the data were processed

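Total RNA was measured on 19 Affymetrix Yeast 2.0 arrays, 1 per strain and time. The values deposited by the authors are log2 probe set summaries between 5.76 and 15.02, and the sources used here do not name the background correction or normalization behind them. The table holds 5814 probe sets, of which 5498 name a single gene (265 name none and 51 are controls). Symbols were updated by gene identifier in 12 cases. Where a gene had more than 1 probe set (47 genes) the brightest on average stood for it, which left 5449 genes. The number of arrays limits the precision.

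The log2 values were quantile-normalized and fitted with limma 3.58.1 in R 4.3.3 (lmFit, eBayes), with Benjamini-Hochberg adjustment over all 5449 genes and a threshold of 0.05. The strain difference used the 9 shared times with time as a block (8 residual degrees of freedom). The period changes used all 19 arrays with strain-by-period means for 12 h, 24 to 48 h, 60 to 84 h and 96 h and later (11 residual degrees of freedom). SCH9 was tested by exact permutation of signs. P-values measure the spread over time points, not over independent cultures. On simulated data of the 5449 genes, the fits recovered 80% of planted strain differences of 0.5, 69% of early wild-type changes of 1 and 52% of differences of the early changes of 1. Changes were planted in few genes, with independent noise at the spread of the labelled mutant from 24 h on, and flat courses for the period fits. Far more genes passed in the data, so these shares do not give the sensitivity reached here.

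All members could be named. In full detail are SCH9, the up to 4 largest members in each direction of each limma result, and POL30, RNR1, RNR3 and MCM3. Outside lists gave up to 2 genes in each direction, by adjusted p. The members and lists were chosen with earlier results of these data known. Alternatives were cyclic loess, median centring, the deposited values, dim genes left out (the lower 25%), an adjusted p under 0.01, an intensity trend with a robust prior, other periods, a slope, no time block, the 3' to 5' score in the model, and each time or array left out. The score in the period fits and 60 and 72 h as the late period were added after seeing the data. No sequences were used here.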

Additional observations from a re-analysis of the deposited data

Results flagged for a closer look

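In 28 of 86 series (43 genes in 2 strains) 1 array lay apart from the others of its strain by Dixon's criterion for 9 or 10 values. Independent values from a single normal population would give this in about 1 of 20. A time course is not such a sample, so the count does not test against chance. The share over all genes was not counted. The early change from the 12 h array passed in 59.9% of all genes in the labelled mutant and 62.3% in the wild type. Of the 28 arrays that lay apart, 23 were the 12 h array. In the labelled mutant the 12 h array was far above the rest for RNR1 (12.47), POL30 (11.95), MCM7 (11.18), RFA1 (10.62), MCM5 (9.70), MCM6 (9.51) and RAD27 (9.30), and far below for RAD7 (9.37), RAD2 (8.78), RAD54 (8.69), RAD4 (8.42) and RAD28 (8.29). In the wild type it was far above the rest for RNR2 (12.54), RNR1 (11.96), POL30 (11.96), MCM3 (10.58), MCM2 (10.21), RAD1 (10.10), RAD3 (9.72), MCM5 (9.19) and RAD27 (9.05), and far below for RAD16 (9.06) and RAD28 (8.44). The other 5 were 24 h arrays. In the labelled mutant MCM3 (9.67) was low, and RAD30 (9.32), RAD17 (9.12) and RAD61 (8.99) were high, on the array with the highest 3' to 5' score of that strain (1.06). In the wild type RFA2 (10.72) was low at 24 h.

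The early change differed between the strains, labelled mutant minus wild type, for RNR3 (1.34), RAD53 (1.28), RNR2 (0.85), RAD24 (0.84), RAD1 (0.77), RAD2 (0.69), RNR4 (0.68), RFA3 (0.54), RAD54 (-0.81), RAD16 (-0.96), RAD6 (-1.29) and RAD59 (-1.32). The late change differed for RAD59 (1.14), RAD6 (0.99), RAD54 (0.64), MCM6 (0.63), RAD7 (0.56), RAD3 (0.42), RFA3 (-0.40), RAD9 (-0.48) and RNR4 (-1.01). RAD6, RAD54, RAD59, RFA3 and RNR4 were in both groups, with opposite signs. Both differences use the same 24 to 48 h arrays, which enter them with opposite signs.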

How the results depend on the processing

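The labels carry no replicate numbers, and the strain difference was paired by time. Without the time block 24 members passed for the strain difference. That count of 30 was 16 with dim genes left out (25 members tested) and 28 to 32 with each time left out. The early counts of 22 in the labelled mutant and 28 in the wild type were 22 to 23 and 26 to 32 with single arrays left out. The 12 differences of the early changes were 7 after median centring, 3 at an adjusted p under 0.01 and 8 to 18 with single arrays left out. The 6 late calls in the labelled mutant were 2 on the deposited scale, 2 after median centring, 2 at an adjusted p under 0.01, 1 with 36 to 60 h as the early period, 10 with the 3' to 5' score in the model, 14 as a slope, and 0 (limma, 5 at an unadjusted p under 0.05) with 60 and 72 h as the late period. They were 1 to 12 with single arrays left out, the highest without the mutant 48 h array. The 18 late wild-type calls were 10 with dim genes left out, 4 with the score, 8 with 60 and 72 h, and 15 to 22 with single arrays left out. The 9 differences of the late changes were 19 on the deposited scale, 0 with the score (limma, 7 at an unadjusted p under 0.05), 1 with 60 and 72 h, 3 at an adjusted p under 0.01, and 4 to 14 with single arrays left out, the lowest without the wild-type 36, 96 or 120 h or the mutant 96 or 108 h array and the highest without the wild-type 24 h array. SCH9 ranged over -0.60 to -0.43 with each time left out and was -0.39 on the deposited scale (exact permutation p = 0.109). Reversed on the deposited scale were the early wild-type changes of MCM4 (0.21) and RAD1 (0.11), the early differences of RFA3 (-0.0815) and RNR4 (-0.04), the late wild-type change of RAD9 (-0.0176) and the late difference of RFA3 (0.10). The late wild-type change was -0.13 for RNR3 with the score and -0.17 for RAD9 with 60 and 72 h. Over all alternatives the values of single called genes kept direction and call in 1568 cases, lost the call in 268 and reversed in 8. Fewer genes or arrays enter where genes or arrays are left out; otherwise the cause was not tested.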
